A study of Mus musculus with 4 samples.

Results

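The genes that build the proton pump of the lysosome and the proteases that work in its acid were compared between mouse bone marrow derived macrophages with and without RBP-J. Members were taken by symbol: every symbol that starts with Atp6v0, Atp6v1 or Atp6ap, the membrane glycoproteins Lamp1 and Lamp2, and every cathepsin written as Cts plus 1 letter, without Atp6v0d2, Ctsk, Ctss and Ctsg. This gave 42 of the 22026 symbols listed. Of them, 25 belong to the pump (13 subunits of its V1 sector, 9 of its V0 sector and 3 accessory genes), 2 are LAMP genes and 15 are cathepsins.

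The cells came from C57BL/6 mice aged 8 weeks. Marrow was grown for 3 days with supernatant of CMG14-12, a cell line that secretes M-CSF, in an amount matched to 20 ng/ml of this macrophage growth factor. The 2 WT libraries are labelled wildtype control, with no allele or Cre named. The 2 RBP-J KO libraries carry Rbpj f/f with LysM cre, in which the promoter of the lysozyme gene Lyz2 drives Cre in myeloid cells. RBP-J is the DNA-binding protein of Notch signalling, and the comparison asks which RNA levels differ where it is missing. The labels do not say whether equal replicate numbers mark cells grown together, or whether replicates are separate mice. The p-values measure only how far these libraries spread.

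The pump, or V-ATPase, is a rotary machine. Its V1 sector sits in the cytosol and splits ATP, and its V0 sector spans the membrane and carries protons into the lysosome. The acid activates cathepsins, a group of proteases of 3 chemical kinds: aspartic (Ctsd and Ctse), serine (Ctsa) and cysteine (most others). LAMP proteins coat the inner face of the lysosomal membrane. Macrophages use the system to break down what they engulf, and factors of the MiT/TFE family are known to drive many of its genes through a CLEAR element, whose core is the E-box CACGTG.

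That E-box and the RBP-J core TGGGAA were looked up in the promoter windows of RefSeq on GRCm38.p6, which run from 250 bases before to 50 bases after a transcript start. A window was present for 31 members, 21 of them among the genes tested here. CACGTG, which reads the same on both strands, stood in 4 of 12 pump genes (Atp6v0b, Atp6v0d1, Atp6v0e and Atp6v1a), 4 of 7 cathepsins (Ctsa, Ctsd, Ctsf and Ctsl) and 1 of 2 LAMP genes (Lamp1). It stood in 12.1% of the 8432 tested genes with a window and in 7.15% of all 32851 windows. TCACGTGA, which contains it, was found in 3 of the 12 pump genes and 2 of the 7 cathepsins, against 2.34% of tested genes and 0.974% of windows. TGGGAA, searched on both strands, was found in 7 of the 12 pump genes and in 0 of the 7 cathepsins, against 26.6% of tested genes and 25.6% of windows. A match is a description of these letters only. To show the motif in members of each kind, the 140 bases before the start site are printed 5′ to 3′ on the gene's strand for 5 genes that hold CACGTG there (in capitals). They cover chr16:44139260-44139399 (minus strand) for Atp6v1a, chr4:117887330-117887469 (minus) for Atp6v0b, chr8:13159021-13159160 (plus) for Lamp1, chr7:142387828-142387967 (minus) for Ctsd and chr2:164833633-164833772 (plus) for Ctsa.
Atp6v1a: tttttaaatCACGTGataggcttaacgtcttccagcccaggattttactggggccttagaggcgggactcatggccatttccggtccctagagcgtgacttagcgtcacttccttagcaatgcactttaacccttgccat
Atp6v0b: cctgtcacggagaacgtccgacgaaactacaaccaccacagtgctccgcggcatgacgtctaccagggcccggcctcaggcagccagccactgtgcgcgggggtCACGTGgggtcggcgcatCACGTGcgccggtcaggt
Lamp1: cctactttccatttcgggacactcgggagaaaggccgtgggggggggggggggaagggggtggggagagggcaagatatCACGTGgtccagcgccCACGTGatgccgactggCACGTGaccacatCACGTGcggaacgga
Ctsd: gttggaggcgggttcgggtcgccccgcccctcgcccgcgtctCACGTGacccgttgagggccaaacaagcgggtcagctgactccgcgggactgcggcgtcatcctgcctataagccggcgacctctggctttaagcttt
Ctsa: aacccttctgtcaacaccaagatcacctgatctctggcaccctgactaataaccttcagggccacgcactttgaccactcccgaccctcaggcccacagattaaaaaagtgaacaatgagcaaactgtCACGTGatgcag
Lamp1 held 4 copies within 61 bases before its start, and Atp6v0b held 2. The copy of Ctsa ended 7 bases before the start, and a further copy lay after the start, outside the stretch shown.

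Values are FPKM, a level per length of transcript. Between 12142 and 12707 symbols were above 0 in a library, summed FPKM lay between 2125327 and 2389348, and read depth is unknown. Rbpj read 354.6 and 572.71 FPKM in the controls and 51.45 and 77.0 FPKM without RBP-J. Its log2 difference was -2.82 (SE 0.34), and with limma its adjusted p over all genes was 0.457. The replicate number separated the libraries. Replicate 1 was deposited by gene and replicate 2 by transcript. The Y-linked Ddx3y was at 192.85 (WT) and 173.62 FPKM (RBP-J KO) in replicate 1 and listed at 0 in replicate 2, and Xist had the opposite pattern, so the libraries of a group are from different mice. Differences are therefore given also inside each replicate number, as pair 1 and pair 2 (RBP-J KO against WT of the same number). In bulk RNA, fewer cells of a type and less RNA per cell cannot be told apart.

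Of the 42 members, 30 averaged 1 FPKM or more over the libraries and entered the test. They were 9 V1, 7 V0 and 2 accessory genes of the pump, both LAMP genes and 10 cathepsins. Another 11 were listed at 0 in every library: Atp6v1b1, Atp6v1c2, Atp6v1e2, Atp6v1g3, Atp6v0a4, Atp6v0e2, Atp6ap1l, Ctsj, Ctsm, Ctsq and Ctsr. Several of the pump isoforms among these are known from kidney, testis or brain, and the 4 cathepsins are known from placenta. Ctsw, known from cytotoxic lymphocytes, was at 1.79 FPKM in RBP-J KO replicate 1 and listed at 0 elsewhere. Mean levels over the libraries ran from 10.8 to 1446 FPKM for tested V1 genes, from 92.6 to 1734 FPKM for V0 genes and from 40.4 to 27340 FPKM for cathepsins. The member cathepsins, which leave out Ctss, Ctsk and Ctsg, together made up 2.12% to 2.93% of all FPKM in a library. Pump genes made up 0.644% to 0.786%.

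**Figure D1:**
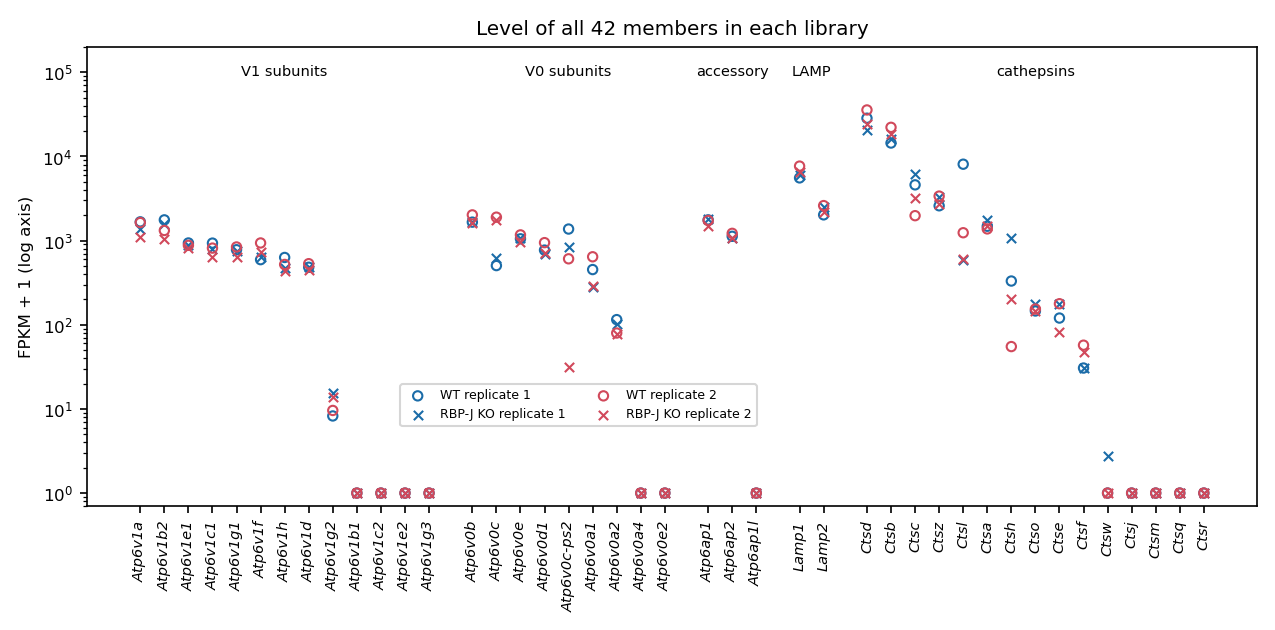
Level of each of the 42 members in each library, as FPKM + 1 on a log axis, ordered by role and mean level. Circles are WT and crosses RBP-J KO, with replicate 1 in blue and replicate 2 in red. Ctsd and Ctsb stand above every other member, and the 4 points of Ctsl, Ctsh and Atp6v0c-ps2 are the most spread among members above 20 FPKM in each library.

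No member passed the test between the groups. With limma on log2(FPKM + 1) and Benjamini-Hochberg adjustment, 0% of the 11851 genes tested passed an adjusted p of 0.05, and Rbpj did not pass either. Without adjustment, 524 genes had a p under 0.05 (259 with higher and 265 with lower values in RBP-J KO), and 1 of them was a member, Atp6v0a1. With 2 libraries a group, an exact two-sided permutation test of a single gene cannot go below p = 0.333. What follows describes levels and differences that the adjusted test did not call.

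Of the 18 tested pump genes, 12 were lower in RBP-J KO in both pairs and 1 was higher in both, against 34.1% and 25.1% of all genes tested. In the other scalings tried (upper quartile, quantile and summed FPKM) 10 of the 18 were lower in both pairs, beside 27.1%, 29.5% and 26.0% of all genes. Atp6v0b turned direction in 1 pair under all 3 of these scalings, Atp6v0a2 under 2 and Atp6v1e1 under 1. The groups did not overlap for 8 pump genes that were lower in RBP-J KO and 1 that was higher, against 18.2% and 11.7% of all genes. The median difference of the pump was small: -0.15 on the log2 scale over both groups, -0.07 in pair 1 and -0.31 in pair 2. The median of all genes was -0.05, -0.05 and -0.02 in the same order. In pair 2, 17 of the 18 were lower. Without Atp6v0c-ps2, a pseudogene that the symbol rule takes in, 11 of 17 were lower in both pairs. A gap of 1.5-fold or more inside each pair was seen in 2 pump genes, Atp6v0a1 and Atp6v0c-ps2, both lower, against 3.63% of all genes.

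**Figure D2:**
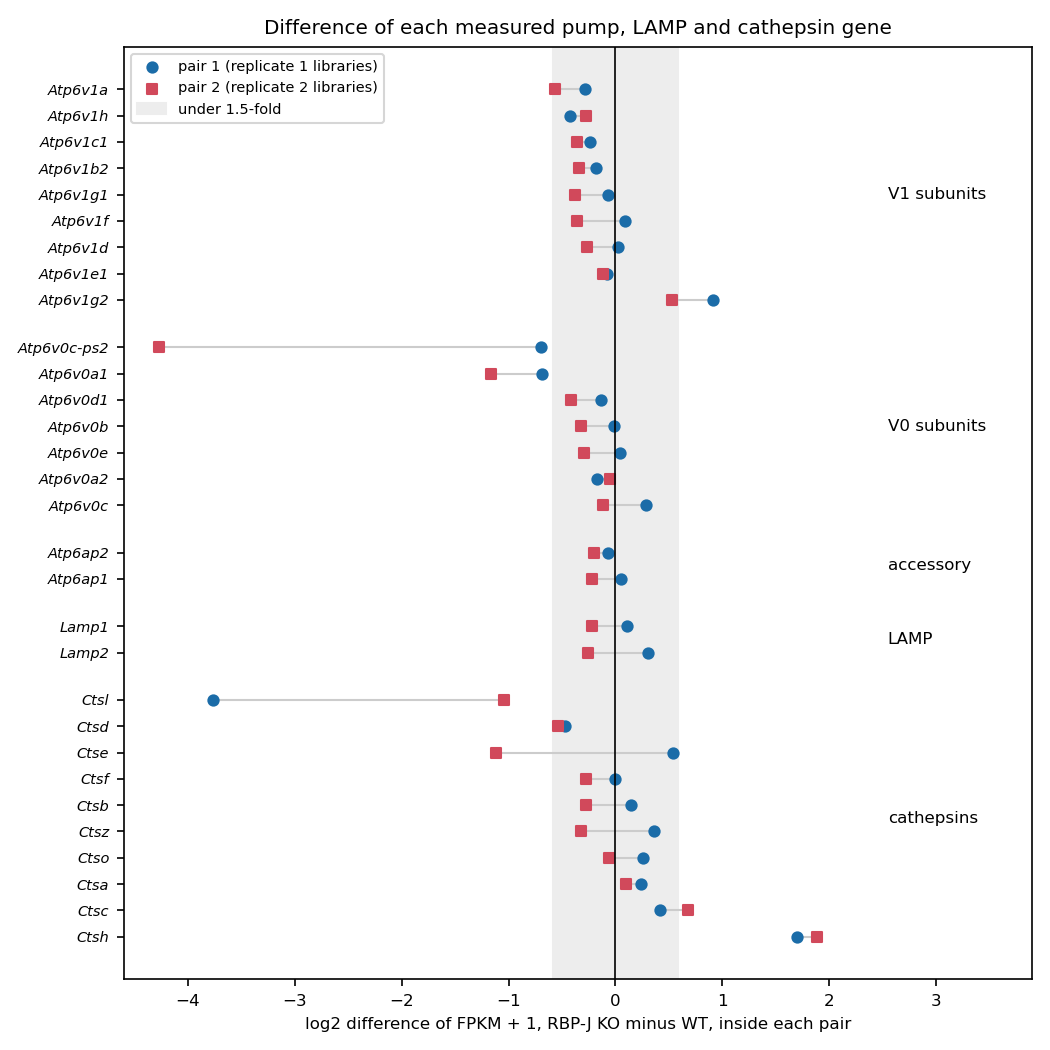
Difference of each tested member inside pair 1 (blue circles) and pair 2 (red squares), as log2 of FPKM + 1 in RBP-J KO minus WT, with 1 library per group in each pair; the grey band marks differences under 1.5-fold. Most pump genes sit just left of 0 in pair 2, while cathepsins spread from Ctsl on the left to Ctsh on the right.

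Among V1 subunits, 6 of 9 were lower in RBP-J KO in both pairs and 1 was higher. Atp6v1a, the catalytic subunit that splits ATP, was at 1670.57 and 1638.53 FPKM in the WT libraries and at 1368.46 and 1107.81 FPKM in the RBP-J KO libraries. Both RBP-J KO values lay under both WT values, by 1.22-fold in pair 1 and 1.48-fold in pair 2. Its log2 difference was -0.43 (SE 0.21, limma adjusted p = 0.999). Atp6v1b2, the common isoform of the B subunit that alternates with A in the ring, measured 1763.81 and 1319.05 FPKM in both WT libraries against 1554.08 and 1041.34 FPKM in RBP-J KO. It was lower in each pair, but RBP-J KO replicate 1 lay above WT replicate 2. Atp6v1e1, part of the stalks that hold the ring, was at 936.61 and 878.04 FPKM in the WT libraries and at 885.23 and 811.44 FPKM in the RBP-J KO libraries, and the groups overlapped. The difference of Atp6v1e1 was at most 1.08-fold. 3 more V1 genes were lower in both pairs without overlap. Atp6v1c1, which joins V1 to V0, was lower by 1.18-fold and 1.28-fold. Atp6v1h, a regulatory subunit, was lower by 1.34-fold and 1.21-fold. Atp6v1g1, of the stalks, differed by -0.07 and -0.38 on the log2 scale. Atp6v1d and Atp6v1f, of the central stalk, were higher in pair 1 and lower in pair 2, by at most 1.28-fold.

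A V1 gene of low level went the other way. Atp6v1g2, a stalk subunit isoform known mainly from neurons, read 7.25 and 8.59 FPKM in the controls and 14.5 and 12.83 FPKM without RBP-J. The groups did not overlap, and the log2 difference was 0.72 (SE 0.28, limma adjusted p = 0.999). It was the lowest of the tested members. Atp6v1g1, the isoform found in most cells, measured 778.34 and 839.36 FPKM in both WT libraries against 742.94 and 645.62 FPKM in RBP-J KO.

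Among V0 genes, 5 of 7 were lower in RBP-J KO in both pairs and 0 were higher in both. Without the pseudogene copy Atp6v0c-ps2, 4 of 6 V0 subunits were lower. Atp6v0a1 showed the largest difference among members whose groups did not overlap, apart from Ctsl. It encodes an isoform of the large a subunit, which carries the proton path and helps place the pump in its membrane. The WT libraries gave 452.13 and 641.81 FPKM, with a mean of 547 ± 134 (SD, n = 2). The RBP-J KO libraries gave 280.26 and 285.65 FPKM, with a mean of 283 ± 3.81 (SD, n = 2). The RBP-J KO libraries were close to each other, and the WT libraries were 1.61-fold and 2.24-fold above them in pair 1 and pair 2. The log2 difference was -0.93 (SE 0.24), with an unadjusted p of 0.0137 and a limma adjusted p of 0.758. Leaving out each library in turn kept it between -1.18 and -0.67. The other a isoforms did not share the size of this difference: Atp6v0a2 differed by 1.13-fold and 1.03-fold. Tcirg1, the a3 isoform of lysosomes and osteoclasts, which is outside the members by its name, was at 1129.48 and 1112.89 FPKM in the WT libraries and at 1101.15 and 1076.55 FPKM in the RBP-J KO libraries. Set against Atp6v0d1, the subunit that couples the stalk of V1 to the rotor ring, Atp6v0a1 was at a ratio of 0.587 and 0.679 in WT and of 0.399 and 0.403 in RBP-J KO.

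The other protein-coding V0 genes differed less. Atp6v0b, a proteolipid of the rotor ring, read 1657.23 and 2021.58 FPKM in the controls and 1643.61 and 1615 FPKM without RBP-J. These groups did not overlap, but the gap in pair 1 was 1.01-fold. Atp6v0d1 was lower by 1.10-fold and 1.33-fold, without overlap. Atp6v0e, a small subunit, measured 1049.96 and 1169.11 FPKM in both WT libraries against 1081.92 and 954.57 FPKM in RBP-J KO, higher in pair 1 and lower in pair 2. The main ring proteolipid Atp6v0c was at 504.1 and 1898.87 FPKM in the WT libraries and at 613.76 and 1753.13 FPKM in the RBP-J KO libraries. For Atp6v0c the replicates of a group stood further apart than the groups.

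Atp6v0c-ps2, a pseudogene copy of Atp6v0c, read 1371.98 and 606.98 FPKM in the controls and 846.83 and 30.48 FPKM without RBP-J. It was 1.62-fold lower in pair 1 and 19.3-fold lower in pair 2, with overlapping groups, and without RBP-J KO replicate 2 its log2 difference went from -2.48 to -0.11. Reads of such a copy and its parent can be assigned to either, so both values are uncertain. Their sum measured 1876.08 and 2505.85 FPKM in both WT libraries against 1460.59 and 1783.61 FPKM in RBP-J KO. For the sum, RBP-J KO was at 0.779 of WT in pair 1 and 0.712 in pair 2, without overlap.

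The tested accessory genes and both LAMP genes differed by at most 1.24-fold in either pair. Atp6ap1, which helps assemble and sort the pump, was at 1764.26 and 1733.77 FPKM in the WT libraries and at 1826.11 and 1487.61 FPKM in the RBP-J KO libraries. Atp6ap2, the (pro)renin receptor that also takes part in pump assembly, read 1124.75 and 1219.34 FPKM in the controls and 1075.49 and 1063.62 FPKM without RBP-J. The groups overlapped for Atp6ap1 and not for Atp6ap2, where the gaps were 1.05-fold and 1.15-fold. Lamp1 measured 5564.7 and 7683.5 FPKM in both WT libraries against 5987.83 and 6599.88 FPKM in RBP-J KO. Lamp2, which is also the receptor of chaperone-mediated autophagy, was at 2022.99 and 2607.05 FPKM in the WT libraries and at 2500.41 and 2184.76 FPKM in the RBP-J KO libraries. Both LAMP genes were higher in RBP-J KO in pair 1 and lower in pair 2, and for both the RBP-J KO libraries lay between the WT libraries. Directions over both groups were not stable here: Atp6ap1 went from -0.09 to 0.03 on the log2 scale under quantile normalization, Lamp1 from -0.06 to values just above 0 under quantile and summed-FPKM scaling, and Lamp2 from 0.03 to -0.01 with its highest transcript alone. In replicate 2, where transcripts were listed apart, both transcripts of Lamp2 were lower in RBP-J KO, at 0.783 and 0.901 of WT.

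Of the 10 tested cathepsins, 3 were lower in both pairs (Ctsd, Ctsf and Ctsl), 3 were higher in both (Ctsa, Ctsc and Ctsh) and 4 differed in direction between the pairs. These counts stand beside 34.1% lower and 25.1% higher among all genes. Under each of the 3 other scalings the count was 2 lower and 4 higher, since Ctsf turned in pair 1 and Ctso in pair 2, beside 26.0% to 29.5% lower and 29.1% to 32.0% higher among all genes. The groups did not overlap for 2 genes, both lower in RBP-J KO, against 18.2% of all genes. A 1.5-fold difference in both pairs was seen for Ctsl, which was lower, and for Ctsh, which was higher, against 3.63% and 3.86% of all genes. With group as the only term, no cathepsin had an unadjusted p under 0.05.

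Ctsl, a cysteine protease of broad specificity, had the largest difference of any member over both groups apart from Atp6v0c-ps2. The WT libraries gave 8094.15 and 1240.05 FPKM, with a mean of 4667 ± 4847 (SD, n = 2). The RBP-J KO libraries gave 594.66 and 600.86 FPKM, with a mean of 598 ± 4.38 (SD, n = 2). WT replicate 1 stood far above the other libraries, and both WT libraries lay above both RBP-J KO libraries, by 13.6-fold and 2.06-fold. The log2 difference was -2.40 (SE 0.92, unadjusted p = 0.0518, limma adjusted p = 0.999), and it was -1.05 without WT replicate 1 and -3.76 without WT replicate 2. By FPKM, Ctsl ranked 12 and 255 among all symbols in the WT libraries and 669 and 576 in those of RBP-J KO. Against Ctsb, the most abundant cysteine cathepsin, its ratio was 0.560 and 0.0558 in WT and 0.0371 and 0.0328 in RBP-J KO.

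Ctsd, the main aspartic protease of lysosomes, was the highest member. It measured 28502.6 and 35716.1 FPKM in both WT libraries against 20516.4 and 24625.1 FPKM in RBP-J KO, and ranked between 2 and 4 among all symbols in every library. Both RBP-J KO libraries lay under both WT libraries, by 1.39-fold and 1.45-fold. The log2 difference was -0.51 (SE 0.29, limma adjusted p = 0.999), and leaving out each library kept it between -0.67 and -0.34. Ctse, the other aspartic member, read 119.19 and 176.95 FPKM in the controls and 173.71 and 81.07 FPKM without RBP-J. Ctse was thus 1.45-fold higher in pair 1 and 2.17-fold lower in pair 2, and the groups overlapped.

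Ctsh, a cysteine cathepsin that trims peptides from their amino end, measured 330.05 and 54.07 FPKM in both WT libraries against 1072.85 and 202.48 FPKM in RBP-J KO. RBP-J KO stood above WT by 3.24-fold in pair 1 and 3.69-fold in pair 2. Replicate 1 stood above replicate 2 in both groups, so that the groups overlapped, and the log2 difference was 1.79 (SE 1.18, limma adjusted p = 0.999). That value moved with single libraries: it was 0.50 without WT replicate 2, 0.59 without RBP-J KO replicate 1, 2.99 without RBP-J KO replicate 2 and 3.09 without WT replicate 1. Ctsc, which activates the serine proteases of neutrophils and other immune cells, was at 4599.38 and 1978.23 FPKM in the WT libraries and at 6130.58 and 3171.16 FPKM in the RBP-J KO libraries. It was higher by 1.33-fold and 1.60-fold inside the pairs, again with replicate 1 above replicate 2 and overlapping groups. Over both groups its log2 difference was 0.55, and it was -0.0609 without WT replicate 2 and 1.16 without WT replicate 1. The ratio of Ctsl to Ctsh was 24.5 and 22.9 in WT and 0.554 and 2.97 in RBP-J KO. Ctsl and Ctsh had the lowest and highest log2 difference among tested cathepsins, so a gap in this ratio follows from their choice. In both genes WT replicate 1 stood above WT replicate 2, a spread that the ratio does not show. The summed FPKM of 12 neutrophil markers took the same order of libraries as Ctsh and Ctsc: 8859 and 7408 in RBP-J KO and WT of pair 1, then 1252 and 390 in pair 2. The part of such cells in the values of Ctsh and Ctsc was not tested.

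Ctsb read 14449.5 and 22207.2 FPKM in the controls and 16037.2 and 18335.3 FPKM without RBP-J, higher in pair 1 and lower in pair 2. Both RBP-J KO values lay between the WT values. Ctsz went from 2593.51 to 3332.64 FPKM in pair 1 and from 3381.56 to 2707.42 FPKM in pair 2, also in opposite directions. Ctsa, the serine carboxypeptidase that also shields beta-galactosidase and neuraminidase, was higher by 1.18-fold and 1.07-fold with overlapping groups. Its 2 transcripts in replicate 2 differed in direction, at 0.890 and 1.26 of WT. Ctso and Ctsf, lower-level cysteine cathepsins, differed by at most 1.21-fold.

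**Figure D3:**
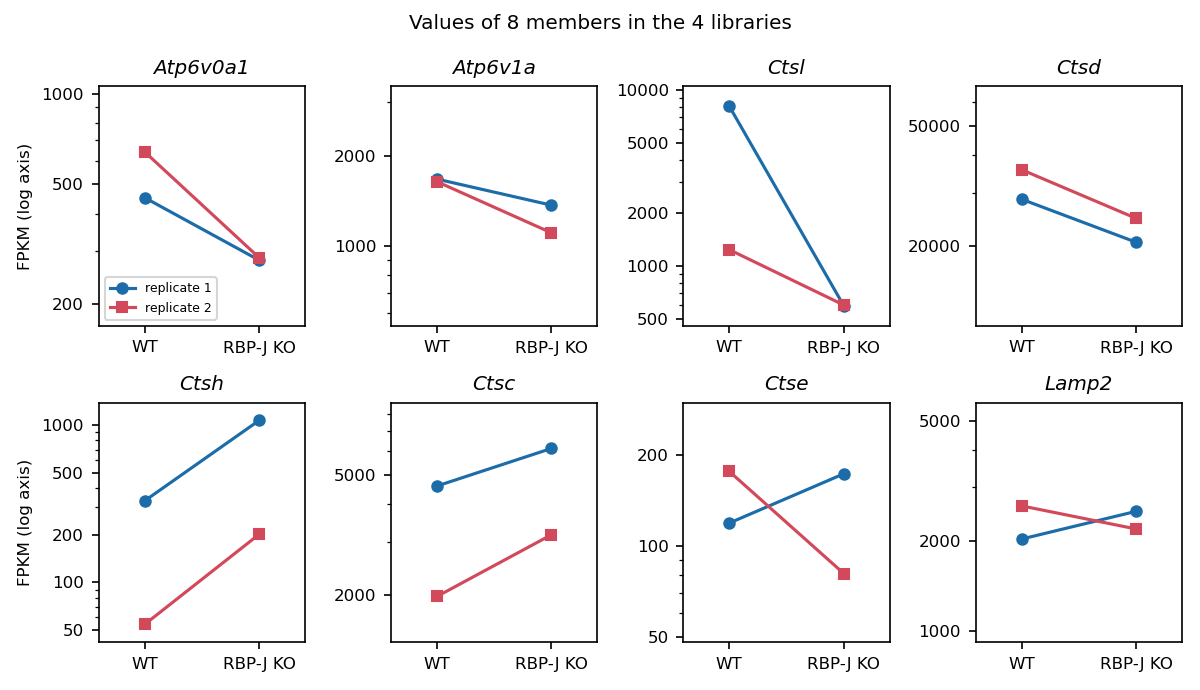
FPKM of 8 members in the 4 libraries on log axes that span different ranges, WT on the left and RBP-J KO on the right, with lines joining libraries of equal replicate number. The lines slope down in both pairs for Atp6v0a1, Atp6v1a, Ctsl and Ctsd, slope up in both for Ctsh and Ctsc, and cross for Ctse and Lamp2.

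The pump and the cathepsins were then set against each other inside each pair. In pair 1 the median of the pump was -0.07 and that of the cathepsins 0.25 on the log2 scale, a gap of -0.33. There the quartiles were -0.22 and 0.04 for the pump and 0.04 and 0.40 for the cathepsins. In pair 2 the medians were -0.31 and -0.27, a gap of -0.03, and the cathepsin values ran wider, with quartiles at -0.48 and 0.06 against -0.37 and -0.20. The pump thus stood below the cathepsins in pair 1, while in pair 2 both were lower by about the same amount. Over both groups the gap was -0.13, and it was -0.05 under quantile normalization and turned to 0.07 without WT replicate 1. Summed over genes, pump FPKM as a share of the library was 0.695% in WT and 0.644% in RBP-J KO in pair 1, and 0.786% and 0.651% in pair 2. The cathepsin share was 2.53% and 2.12% in pair 1 and 2.93% and 2.42% in pair 2, so that the share was lower in both pairs, while the median cathepsin was higher in pair 1. These sums leave out Ctss, Ctsg and Ctsk by the symbol rule. Ctss was the highest of them, going from 7991.03 to 13390.4 FPKM in pair 1 and from 3960.13 to 5602 FPKM in pair 2. Ctsg was also higher in RBP-J KO in both pairs, and Ctsk was lower. In pair 1, FPKM of the member cathepsins summed to 60344 in WT and 49817 in RBP-J KO, and to 52250 and 49223 without Ctsl. Ctsd was also lower there, going from 28502.6 to 20516.4 FPKM, while 7 of the 10 tested cathepsins were higher. In pair 2 the sums were 66340 and 51389, and 65100 and 50788 without Ctsl. In that pair Ctsd went from 35716.1 to 24625.1 FPKM, and 7 of the 10 were lower.

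Other lysosomal genes were read from the same fit. Of 40 hydrolases other than cathepsins, 12 (30.0%) were lower and 14 (35.0%) higher in RBP-J KO in both pairs, beside 34.1% and 25.1% of all genes. Pla2g15, the lysosomal phospholipase A2, measured 438.88 and 469.12 FPKM in both WT libraries against 865.72 and 707 FPKM in RBP-J KO. The hyaluronidase Hyal1 was at 53.97 and 58.03 FPKM in the WT libraries and at 36.02 and 27.15 FPKM in the RBP-J KO libraries, and Hyal2 at 82.42 and 72.93 FPKM against 47.03 and 52.83 FPKM. These groups did not overlap, and unadjusted p-values were 0.013, 0.0212 and 0.0296. Of 22 membrane and cofactor proteins, 5 (22.7%) were lower and 6 (27.3%) higher in both pairs. The groups did not overlap for 5 lower and 2 higher genes of this list, against 18.2% and 11.7% of all genes. Among them, Laptm5 read 3627.61 and 5013.09 FPKM in the controls and 6232.03 and 5697.92 FPKM without RBP-J, and the ganglioside activator Gm2a read 235.14 and 265 FPKM against 428.49 and 311.93 FPKM. Slc17a5, the sialic acid exporter, was lower, with 173.3 and 226.06 FPKM in the controls and 148.44 and 154.74 FPKM without RBP-J. Under the other scalings the higher counts of these lists became 18 or 19 hydrolases and 9 to 11 membrane genes, and the lower counts 9 to 11 and 5. Of all genes, 29.1% to 32.0% were higher and 26.0% to 29.5% lower in both pairs under these scalings.

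Genes that assemble the pump or carry hydrolases to the lysosome form the next lists. Of 11 genes made up of Tcirg1 and assembly or partner factors, 7 were lower and 2 higher in both pairs, beside 34.1% and 25.1% of all genes. Vma21, an assembly chaperone of V0, measured 136.55 and 126.13 FPKM in both WT libraries against 86.11 and 102.5 FPKM in RBP-J KO. Rogdi, a partner of the reassembly complex, was the reverse, with 37.36 and 55.95 FPKM in the controls and 91.86 and 83.69 FPKM without RBP-J (unadjusted p = 0.0212). Of 11 genes of mannose 6-phosphate sorting, 7 were lower and 1 higher in both pairs, beside the same shares of all genes. Igf2r, a receptor that carries hydrolases to endosomes, was at 119.12 and 61.11 FPKM in the WT libraries and at 48.67 and 4.35 FPKM in the RBP-J KO libraries, lower by 2.42-fold and 11.6-fold. Gnptg, part of the enzyme that makes the mannose 6-phosphate tag, was the higher one, with 95.35 and 93.33 FPKM in the controls and 141.52 and 115.96 FPKM without RBP-J. Lower counts under the other scalings were 5 or 6 for assembly and 5 to 7 for sorting, where 26.0% to 29.5% of all genes were lower.

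Of 14 measured genes of the MiT/TFE and mTORC1 system on the lysosome, 11 were lower and 0 higher in both pairs, beside 34.1% and 25.1% of all genes. The list median was -0.10 in pair 1 and -0.35 in pair 2, next to -0.07 and -0.31 for the pump. Under the other scalings 7 or 8 were lower in both pairs and 0 higher, where 26.0% to 29.5% of all genes were lower. Mitf, the MiT/TFE member of this list with values, read 121.74 and 124.05 FPKM in the controls and 104.68 and 86.35 FPKM without RBP-J. The Rag GTPase Rraga, which tethers mTORC1 to lysosomes, measured 388.1 and 310.81 FPKM in both WT libraries against 285.29 and 222.55 FPKM in RBP-J KO. Its partner Rragc read 926.66 and 1049.89 FPKM in the controls and 773.32 and 743.53 FPKM without RBP-J. For all 3 the groups did not overlap, and none had an unadjusted p under 0.05. Tfeb, Tfe3 and Tfec were not analysed here.

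Of 6 measured cathepsin inhibitors, 2 were lower and 0 higher in both pairs, beside 34.1% and 25.1% of all genes. Under each other scaling 1 was lower, where 26.0% to 29.5% of all genes were lower. Serpinb6a, a cytosolic serpin, was at 2329.63 and 2982.13 FPKM in the WT libraries and at 1464.47 and 1673.31 FPKM in the RBP-J KO libraries (unadjusted p = 0.025). Cystatin B (Cstb), which binds cysteine cathepsins, differed by 1.01-fold and 1.36-fold. Cst7 read 4.7 and 14.81 FPKM in the controls and 13.6 and 9.89 FPKM without RBP-J, in opposite directions.

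**Figure D4:**
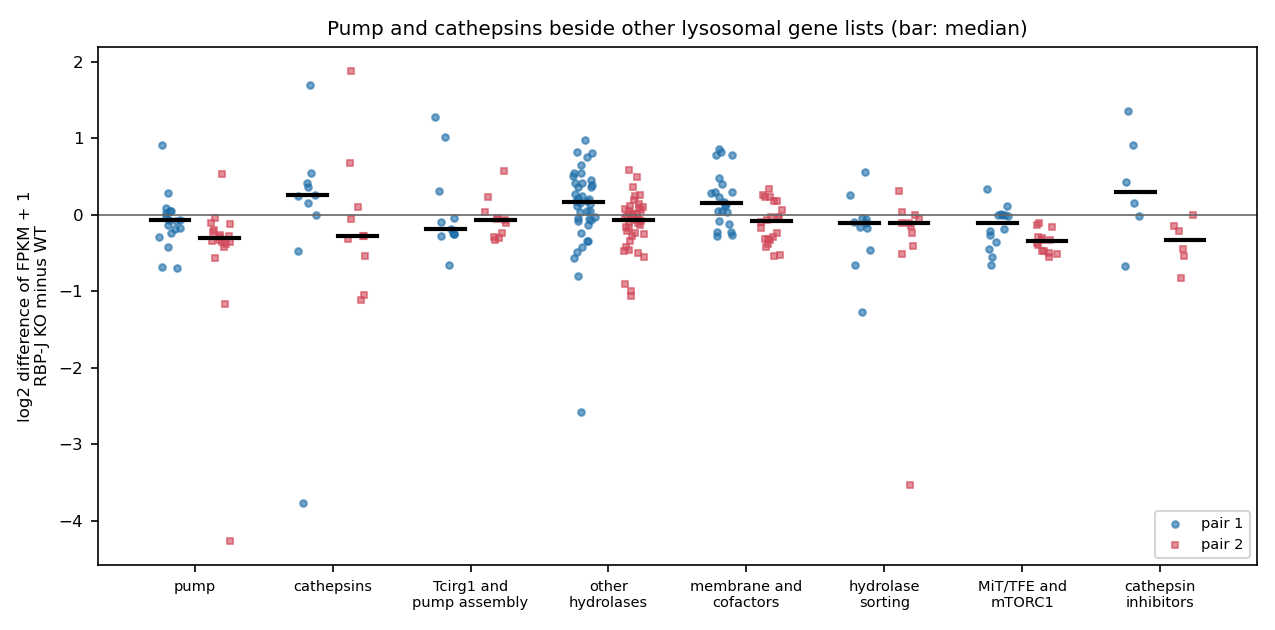
Differences inside pair 1 (blue circles) and pair 2 (red squares) for the pump, the cathepsins and 6 other lysosomal lists, as log2 of FPKM + 1 in RBP-J KO minus WT; each point is a gene and each black bar a median. Medians lie within 0.4 of 0 throughout. Those of the pump, the cathepsins, the other hydrolases, the membrane list, the MiT/TFE and mTORC1 list and the inhibitors are lower in pair 2 than in pair 1. The median of Tcirg1 and the pump assembly factors is higher in pair 2, at -0.18 in pair 1 and -0.07 in pair 2. That of the sorting list is -0.11 in both.

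Relatives left out of the members are given for reference. Ctss, a cathepsin of antigen-presenting cells, measured 7991.03 and 3960.13 FPKM in both WT libraries against 13390.4 and 5602 FPKM in RBP-J KO. Its pattern over the libraries was that of Ctsc, with replicate 1 above replicate 2 and RBP-J KO above WT inside each pair. Ctsg, a granule protease of neutrophils, was at 26.34 and 5.37 FPKM in the WT libraries and at 54.84 and 13.59 FPKM in the RBP-J KO libraries. Ctsk was lower in RBP-J KO, going from 122.99 to 30.83 FPKM in pair 1 and from 9.43 to 3.86 FPKM in pair 2. Its groups overlapped, with replicate 1 above replicate 2. The osteoclast subunit Atp6v0d2 read 47.07 and 45.46 FPKM in the controls and 39.21 and 33.51 FPKM without RBP-J.

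Marker lists of macrophages and of other marrow cells were read in the same libraries. All 10 macrophage markers were measured, and their summed FPKM was 22470 and 21471 in WT and 28875 and 19519 in RBP-J KO. Inside both pairs, 3 of the 10 were lower in RBP-J KO and 4 were higher. Cd68, a lysosomal membrane protein of macrophages, ran from 5172.65 to 6472.68 FPKM. Mpeg1 was higher in RBP-J KO, and its groups did not overlap. It went from 5121.49 to 9175.94 FPKM inside pair 1 and from 5805.36 to 6667.53 FPKM inside pair 2. Lyz2, the gene whose promoter drives the Cre, read 218.36 and 191.52 FPKM in the controls and 94.34 and 114.93 FPKM without RBP-J, and Cd14 read 1714.68 and 1569.56 FPKM against 764.21 and 799.66 FPKM. Of 12 neutrophil markers, 9 were higher and 0 lower in RBP-J KO in both pairs, beside 25.1% and 34.1% of all genes. Their summed FPKM went from 7408 to 8859 inside pair 1 and from 390 to 1252 inside pair 2, with only Retnlg listed at 0, in the WT library of pair 2. Dendritic cell markers (5 of 8 measured) summed to 7.55 and 2.39 FPKM in WT and to 79.2 and 2.77 FPKM in RBP-J KO, and their defining factor Zbtb46 was listed at 0 in every library but RBP-J KO replicate 1. Osteoclast markers (6 of 8) summed to 204.6 and 55.4 FPKM in WT and to 412.8 and 55.4 FPKM in RBP-J KO, and Calcr and Oscar were listed at 0 in every library. B cell markers (4 of 8) summed to 18.5 and 6.93 FPKM in WT and to 37.2 and 25.95 FPKM in RBP-J KO, with Ebf1 at 0 throughout. NK and T cell markers (1 of 10) summed to at most 14.8 FPKM, mast cell and basophil markers (2 of 6) to at most 19.2 FPKM and erythroid markers (2 of 6) to at most 22.5 FPKM.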

How the data were processed

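RNA was measured in 4 libraries, 2 WT and 2 RBP-J KO, grouped by their titles. Libraries were made with the Illumina TruSeq protocol, per the labels' protocols, and the submitters' processing notes name TopHat, Cufflinks and the build mm9. Their annotation was not given in the sources used here, nor were versions. The values the authors deposited were read as FPKM, the unit of Cufflinks, since the headers name none. Libraries of replicate 1 list 22026 genes and those of replicate 2 list 27583 transcripts of the same symbols, which were summed per symbol. In the latter, 25 symbols turned into dates were restored. No whole-read steps were found among low values, so depth and counting error are unknown.

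The log2(FPKM + 1) values, on which changes of low genes come out too small, were fitted with limma 3.58.1 in R 4.3.3 (group as the only term, variance trend, Benjamini-Hochberg over the 11851 genes averaging 1 FPKM or more, two-sided, threshold 0.05). The procedure was tested on simulated data. The simulated noise was independent between libraries and of equal size for every gene, unlike here. That test therefore does not tell how well the fit finds differences in these libraries. Folds inside a pair are ratios of FPKM + 1 between single libraries. Plots were made in Python 3.11.15 with matplotlib 3.10.9.

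The members and all lists were chosen with earlier results of these data known. Values in every library are given for members with at least a 1.5-fold difference in either pair or an unadjusted p under 0.05, for the 3 highest of each role, and, in each other lysosomal list, for genes among the 3 with the smallest p. Ctsz, Ctsw, Ctsk, Atp6v1g1, Tcirg1, Cd68, Ddx3y, Xist and markers named for being listed at 0 were named after their values were seen. Alternatives were the pseudocount, the filter, the scaling, the transcript rows used, the variance trend, the replicate number as a block and leaving out each library.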

Additional observations from a re-analysis of the deposited data

Results flagged for a closer look

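2 cathepsins differed by at least 1.2-fold in opposite directions in the pairs, a limit chosen after the values were seen. Ctse, an aspartic protease of endosomes, had a log2 difference of 0.54 in pair 1 and -1.12 in pair 2. Ctsz, a carboxypeptidase, had 0.36 in pair 1 and -0.32 in pair 2. Each pair holds 1 library per group, so the difference between the pairs was not tested.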

How the results depend on the processing

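In every setting, 0 genes passed the adjusted p. With the replicate block the count of genes and of members past it was again 0, while 1557 genes had an unadjusted p under 0.05 (822 lower), among them 8 members (Ctsh, Atp6v0a1, Ctsc, Ctsl, Ctsd, Atp6v1g2, Atp6v1a and Atp6v0c-ps2), with the smallest adjusted p at 0.0642 for Ctsh. Deviations of same-numbered libraries correlated at 0.64 across genes; no label states a pairing. The pump median stayed below 0 in all settings run, from -0.25 to -0.07 over both groups, from -0.11 to -0.03 in pair 1 and from -0.33 to -0.20 in pair 2. The cathepsin median, -0.02, was 0.0205 with no filter and 0.0205 without Ctsl (chosen after seeing the data). With no filter Ctsw entered the list, and in both cases the median was the value of Ctsz. Under upper-quartile and summed-FPKM scaling the cathepsin median was 0.0325 and 0.0377. The median of all genes went from -0.0456 to 0.0067 and 0.0114 under these scalings. The cathepsin median ran from -0.27 to 0.20 when each library was left out, and the cause of that range was not tested. The pump minus cathepsin median ran from -0.32 to 0.0654 over the same omissions and was -0.05 under quantile normalization, against -0.13. Members at least 1.5-fold higher in both pairs were 2 under upper-quartile and under summed-FPKM scaling (Ctsh and Atp6v1g2), against 1.

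Scaling changed the sign of Atp6ap1 (quantile, 0.0308) and Lamp1 (quantile and summed-FPKM, both 0.0021 to 0.0022), and the highest transcript row that of Lamp2 (-0.0103). Leaving out each library gave ranges that cross 0: Atp6ap1 -0.23 to 0.0623, Atp6v0c -0.87 to 1.04, Atp6v1b2 -0.55 to 0.0269, Ctsb -0.37 to 0.25, Ctsc -0.0609 to 1.16, Ctse -0.83 to 0.26, Lamp1 -0.29 to 0.18 and Lamp2 -0.16 to 0.21. For genes at an unadjusted p under 0.05, 259 were higher and 265 lower as deposited, and 335 and 225 under summed-FPKM scaling. Precision is limited by 2 libraries per group and by unknown depth.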
